A study of Rattus norvegicus with 6 samples.

Results

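Collagens are triple-helical proteins of the extracellular matrix, each built from 3 polypeptide chains, which may be alike or come from different genes. The collagen chains measured here were found as the rows of the normalized count table whose gene name is Col, a number, the letter a and a number, which gave 28 chains among the 27321 features of the table. They comprised 10 chains of fibrillar collagens, 4 chains of basement membrane collagens (all of type IV) and 14 chains of other collagens. Of these, 23 chains (9 fibrillar, 4 basement membrane and 10 other) averaged at least 5 normalized counts over the 6 libraries and were tested. The other 5 were not tested. Col4a2, Col4a6, Col15a1 and Col18a1, also of basement membranes, were not among the rows found. A normalized count is the number of reads on a gene divided by a size factor of the library, and it is not adjusted for the length of the gene. Values for single libraries stand in the order of replicates 1, 2 and 3.

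The RNA came from the IM tip, the terminal portion of the kidney inner medulla, of male Sprague-Dawley rats aged 3 months, taken 15 days after an injection into the tail vein. The 3 control libraries came from rats given vehicle, and the 3 STZ libraries from rats given streptozotocin (STZ) at 62.5 mg/kg, a toxin of pancreatic beta cells that makes rats diabetic. The labels number the libraries of each group 1 to 3 without saying whether a library was made from a single rat, so p-values measure the spread between these libraries. A single lane held the 3 control libraries and 3 others held 1 STZ library each, which means that condition and lane cannot be told apart.

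In fibrillar collagens such as types I, III and V, long uninterrupted helices pack side by side into fibrils, which in the kidney lie in the interstitium and are made mainly by fibroblasts and related stromal cells. Type IV collagen instead forms the sheet-like network of basement membranes under tubular epithelium and endothelium. Its Col4a1 chain, assembled with Col4a2, is the general form, whereas the Col4a3, Col4a4 and Col4a5 chains form a network found in the glomerulus and in parts of the distal tubule, and mutations in them cause Alport syndrome. Type VI collagen forms beaded microfibrils between fibrils and basement membranes, and types XII, XVI and XIX associate with other collagens.

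Col4a3 and Col4a4 are neighbours that are transcribed away from each other, and their starts were 412 bases apart in the RefSeq annotation of the assembly GRCr8. In the deposited table, which uses the older build rn4, 566 bases lay between both loci. The sequences before the starts of 4 chains are shown, because these chains are described in most detail below and both windows of the neighbours overlap. Each is the run of 250 bases before the annotated start, 5′ to 3′ on the strand of the gene. For Col4a3 (chr9:91323740-91323989, plus strand) and Col4a4 (chr9:91323578-91323827, minus strand), capitals mark the 88 bases that both windows share, read on opposite strands.
Col4a3: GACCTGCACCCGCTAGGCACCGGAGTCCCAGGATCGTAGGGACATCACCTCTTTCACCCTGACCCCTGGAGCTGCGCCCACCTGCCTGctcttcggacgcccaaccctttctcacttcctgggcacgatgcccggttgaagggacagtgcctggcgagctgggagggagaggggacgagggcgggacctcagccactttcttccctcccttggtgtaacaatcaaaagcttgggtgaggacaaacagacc
Col4a4: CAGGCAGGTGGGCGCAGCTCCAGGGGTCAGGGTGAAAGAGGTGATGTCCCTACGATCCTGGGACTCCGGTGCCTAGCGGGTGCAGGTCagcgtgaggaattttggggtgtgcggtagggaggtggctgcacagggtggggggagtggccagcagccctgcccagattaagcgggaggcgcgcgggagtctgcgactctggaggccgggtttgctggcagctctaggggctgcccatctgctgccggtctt
For Col4a1 (chr16:84885347-84885596, plus strand) and Col1a2 (chr4:33518307-33518556, plus strand), capitals mark TATAAA, the motif CCAAT or the motif GGGCGG on either strand.
Col4a1: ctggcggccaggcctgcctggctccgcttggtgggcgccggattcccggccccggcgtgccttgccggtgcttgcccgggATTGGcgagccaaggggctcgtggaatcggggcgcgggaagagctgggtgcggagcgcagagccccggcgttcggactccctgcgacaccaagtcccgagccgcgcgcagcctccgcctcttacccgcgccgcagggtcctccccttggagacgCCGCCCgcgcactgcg
Col1a2: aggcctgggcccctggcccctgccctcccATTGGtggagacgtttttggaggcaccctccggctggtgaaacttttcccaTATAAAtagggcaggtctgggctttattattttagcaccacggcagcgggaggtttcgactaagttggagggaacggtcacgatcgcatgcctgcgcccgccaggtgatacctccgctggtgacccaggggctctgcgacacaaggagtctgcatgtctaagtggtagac
The Col1a2 window held TATAAA with CCAAT but lacked GGGCGG, and the Col4a1 window held CCAAT with GGGCGG but lacked TATAAA. RefSeq windows were matched for 23 of the 28 chains. GGGCGG was present in 14 of the 23 windows (60.9%) against 32.4% of 27457 windows of all genes. CCAAT was present in 5 (21.7%) against 34.3%, and TATAAA in 3 (13.0%) against 13.1%. The median GC content was 60% for the collagen windows and 52.0% for all. A match is a description of the letters in the window and not a binding site.

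Between 3412311 and 5575171 reads per library fell on the features of the table, and the 28 collagen chains took between 0.0375% and 0.0584% of them, or 1746 to 2575 reads. The collagen chains were highest in replicate 3 of both groups more often than other features. Control replicate 3 was the highest control library for 17 of the 23 tested chains (73.9%) and STZ replicate 3 was the highest STZ library for 17 of 23 (73.9%), against 36.8% and 33.3% of the 13486 features tested. For 14 chains (60.9%) both were so at once, against 19.4% of all features tested. The pattern was strongest in the 14 chains with a mean of 5 to 50 normalized counts, of which 13 were highest in STZ replicate 3, and over all features in that range 50.1% were highest in that library. The 95th percentile of 835 olfactory receptor genes, a measure of background, was 10 normalized counts in control replicate 3 and 9.03 in STZ replicate 3. The other control libraries had 2.05 and 6.33, and the other STZ libraries 1.86 and 5.93. Its part in the level of the collagen chains was not tested. Above that percentile in all 6 libraries were 16 of the 28 chains. Another 9 were above it in some libraries, and Col2a1, Col8a1 and Col17a1 in none. Neither the chains nor the percentile were adjusted for length. The 16 include Col19a1 and Col24a1, with loci of 334 and 231 kb and only 0.0525 and 0.0728 normalized counts per kb.

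**Figure D1:**
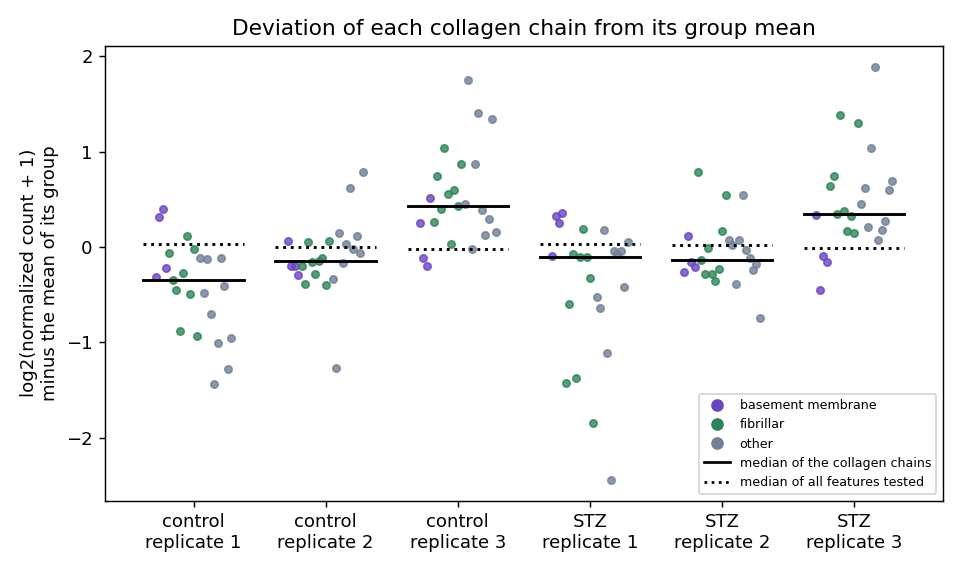
Each point is 1 of the 23 tested collagen chains in 1 library, plotted as log2(normalized count + 1) minus the mean of the 3 libraries of its group, with solid lines for the median of the chains and dotted lines for the median of all features tested. The medians of the chains stand at 0.43 in control replicate 3 and 0.35 in STZ replicate 3, and between -0.35 and -0.10 in the other libraries.

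The tissue was checked with markers of its cell types. Aqp2, the vasopressin-regulated water channel of the collecting duct, ranged from 2137 to 7413 normalized counts. Lrp2, a receptor of the proximal tubule, ranged from 6.15 to 34.1, and Cubn of the same list from 0 to 7.79. Kap, also of that list, had control values of 174, 195 and 283 and STZ values of 65.0, 20.8 and 55.2. Slc12a1 of the thick ascending limb ranged from 123 to 691. In bulk tissue, fewer cells of a type and less RNA per cell cannot be told apart. Over all features tested, 2.10% passed at an adjusted p under 0.05 by limma, 2.13% by edgeR and 4.44% by DESeq2. By limma, 14.7% had an unadjusted p under 0.05. Of 4 collecting duct markers found, 0 passed by limma (3 at an unadjusted p under 0.05) or edgeR and 1, Aqp2, by DESeq2. Of the 3, Aqp2 and Aqp3 had higher means in STZ rats (log2 fold changes of 0.84 and 0.91), Aqp2 without overlap. Hsd11b2 was lower without overlap (-0.83). The summed level of the 4, most of it Aqp3, Aqp4 and Aqp2, was 10692 to 18668 in control and 18144 to 35182 in STZ libraries. Of 5 endothelial markers found, Emcn and Plvap fell in STZ rats. The sum of the 5, most of it Emcn, went from between 6987 and 9081 in control to between 3600 and 3990 normalized counts. Of 4 pericyte and smooth muscle markers found (7 listed), Tagln and Cspg4 rose. Rgs5 (log2 fold change 0.48) and Des (-0.23) overlapped between the groups. The sums of the 4, most of it Tagln, were 353 to 396 in control and 752 to 784 in STZ libraries. Of 5 interstitial fibroblast markers tested, Pdgfra rose by limma. Dpt of the same list was lower in STZ rats without overlap, with control values of 36.9, 40.4 and 46.7 and STZ values of 15.8, 15.8 and 5.02 normalized counts (log2 fold change -1.82, adjusted p = 0.0517 by limma), and DESeq2 called it. The sums of the 7 fibroblast markers found were 7495 to 9126 and 4557 to 10881, most of it Dcn. Of 3 thick ascending limb markers Umod and Egf fell (sums of 1099 to 1886 and 209.8 to 597). Of 2 proximal tubule markers tested Kap fell (sums of 180.4 to 314 and 42.5 to 93.4). Among 5 urothelial markers Upk1b and Upk3a rose (sums of 85.4 to 132 and 440.1 to 517). Most of the urothelial sum in STZ libraries was Upk3a. Upk2 was also higher without overlap (log2 fold change 0.96), whereas Upk1a (0.04) and Upk3b (0.62) overlapped. Umod, Egf, Kap and Upk3a are also in the study's own table of most changed genes, so these lists are not independent. The 3 thin limb markers (2057 to 2457 and 2350 to 2965) and the 5 leukocyte markers (309.6 to 496 and 349 to 396) had 0 that passed by limma, with 0 and 1 at an unadjusted p under 0.05, 0 that passed by edgeR, and 1, Cd14, by DESeq2. Every marker found had reads in at least 1 library.

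No collagen chain passed the test between STZ and control rats. By limma on log2(normalized count + 1), 0 of the 23 chains had an adjusted p-value (Benjamini-Hochberg) under 0.05, where 2.10% of all features tested did (1.17% higher, 0.927% lower). The unadjusted p was under 0.05 for 4 chains (17.4%), against 14.7% of all features. On the recovered reads edgeR called 0 chains (4 at an unadjusted p under 0.05) against 2.13% of all features, and DESeq2 called 2, Col4a1 and Col4a3 (4 at an unadjusted p under 0.05), where DESeq2 called 4.44% of all features. The 3 STZ values lay on one side of the 3 control values for 3 chains (13.0%) against 20.3% of all features tested. These were Col6a2 and Col6a3, higher in STZ rats (10.1% of all features), and Col4a1, lower (10.3%). The median log2 fold change, STZ over control, was 0.33 for the 23 chains and 0.01 for all features tested. There were 16 chains above 0 and 7 below, where 50.5% of all features tested were above 0. The sign of 12 of the 23 chains changed in some alternative run, such as with a library left out. The count of 0 chains called also held without control replicate 3 and without STZ replicate 3. Over all features, calls went from 283 to 352 and 163 in these runs. With the replicate number as a block in limma, 1 chain, Col4a1, passed (adjusted p = 0.0413). It also passed with this block and a correction for locus length (adjusted p = 0.0215 by limma).

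**Figure D2:**
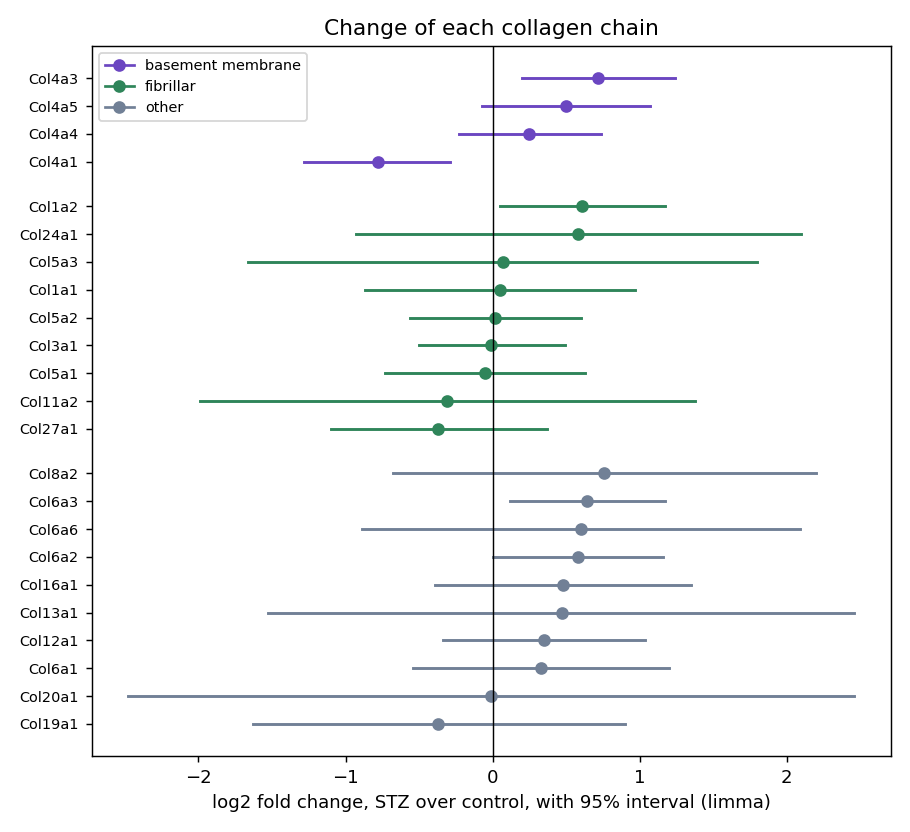
The log2 fold change of each tested collagen chain, STZ over control after adding 1 to the normalized counts, is drawn as a point with its 95% interval from limma, in 3 colours for basement membrane, fibrillar and other chains. The intervals of Col4a1 (below 0) and of Col4a3, Col1a2 and Col6a3 (above 0) leave out 0, before adjustment for the number of features tested.

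Col4a3, Col4a4 and Col4a1 were the most abundant of the 28 chains by normalized count, and Col4a5 followed Col1a2. Col4a1, the general chain of basement membranes, had control values of 226, 291 and 332 and STZ values of 152, 136 and 206 normalized counts. The groups did not overlap, with STZ rats lower. The means were 283 ± 53.6 and 165 ± 36.7 (SD over 3 libraries), giving a log2 fold change of -0.78 with a 95% interval from -1.28 to -0.29 (adjusted p = 0.115 by limma). With edgeR the adjusted p was 0.119, and it was 0.0401 by DESeq2. The gene lies on chromosome 16 of rn4 from 83045182 to 83157835. The summed endothelial markers were also lower in all 3 STZ libraries than in any control (Pecam1 alone had a log2 fold change of 0.04), and their part in the level of Col4a1 was not tested.

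Col4a3, a chain of the second network, had control values of 450.1, 316 and 335 and STZ values of 752, 651 and 436 normalized counts. Only STZ replicate 3 lay within the control range, just below control replicate 1. The means were 367 ± 72.6 and 613 ± 162, a log2 fold change of 0.72 with a 95% interval from 0.20 to 1.24 (adjusted p = 0.163 by limma, n = 3 each). With edgeR the adjusted p was 0.147, and it was 0.0484 by DESeq2. Its neighbour Col4a4 had control values of 469, 307 and 307 and STZ values of 503, 377 and 397 normalized counts. Its groups overlapped, and the log2 fold change of 0.25 had an interval from -0.23 to 0.74 (adjusted p = 0.688). Col4a5, on chromosome X, had control values of 104, 98.4 and 171 and STZ values of 220.1, 148 and 154 normalized counts. All but 1 of its control values were below the STZ values, and the log2 fold change was 0.50, from -0.07 to 1.07 (adjusted p = 0.411). On rn4, Col4a4 and Col4a3 lie on chromosome 9 from 81788878 to 81910088 and from 81910655 to 82036998.

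Within a library the balance of the type IV chains does not depend on its size factor. Col4a2, the partner of Col4a1, was not among the chains found, so Col4a1 alone stands for the general form here. The level of Col4a3 was 2.0, 1.08 and 1.01 times that of Col4a1 among controls, and 4.94, 4.80 and 2.12 times among STZ libraries. The ratio of Col4a4 to Col4a1 was 2.08, 1.05 and 0.926 among controls, and 3.30, 2.78 and 1.93 among STZ libraries. For Col4a5 it was 0.459, 0.338 and 0.517 against 1.45, 1.09 and 0.746. The ratios of Col4a3 and Col4a5 did not overlap between the groups, whereas for Col4a4 the ratio of STZ replicate 3 lay below that of control replicate 1. These ratios are of reads per gene, not of molecules, and were formed after the values were seen, so they are given without a test. The ratio of Col4a3 to its neighbour Col4a4 was 0.961, 1.03 and 1.09 among controls, and 1.49, 1.73 and 1.1 among STZ libraries.

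**Figure D3:**
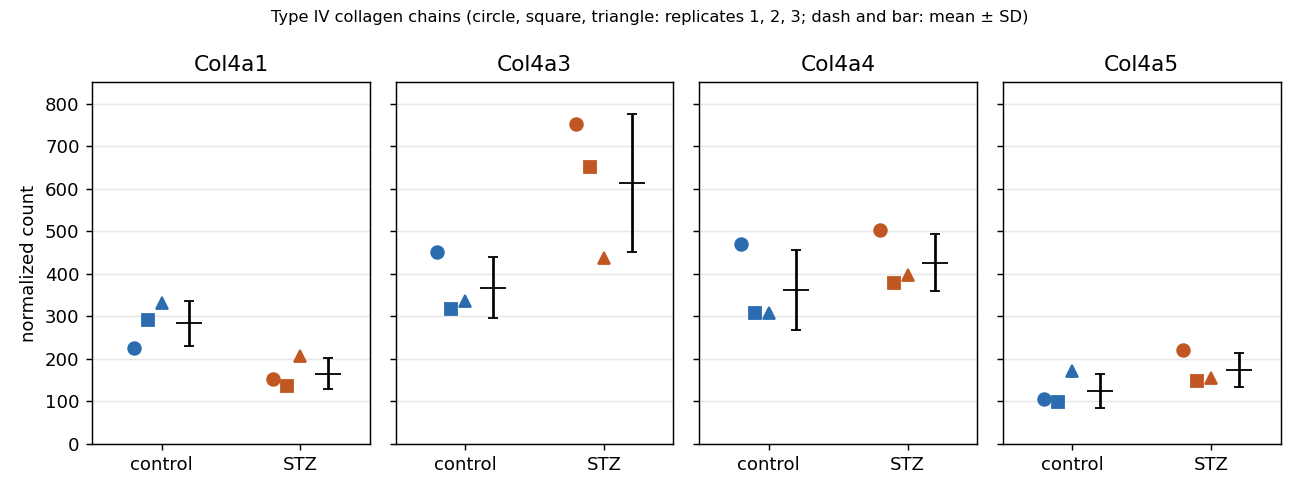
Normalized counts of the 4 type IV chains are plotted per library from 0, with circles, squares and triangles for replicates 1, 2 and 3 and a dash and bar for the mean ± SD of 3 libraries. The STZ libraries lie below the control libraries for Col4a1, while for Col4a3 2 of the 3 STZ libraries lie above all controls.

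Among the fibrillar chains, Col1a2 of type I collagen had the highest level and Col1a1 of the same protein was far lower by reads per gene. Col1a2, on chromosome 4 from 29393550 to 29428568, had control values of 111, 157 and 200.4 and STZ values of 221, 191 and 295 normalized counts. The groups overlapped only through STZ replicate 2. The means were 156 ± 44.8 and 236 ± 53.6 (SD over 3 libraries), giving a log2 fold change of 0.61 with an interval from 0.05 to 1.17 (adjusted p = 0.284 by limma). Col1a1, the other chain of type I collagen, had control values of 20.5, 19.8 and 44.5 and STZ values of 17.6, 24.7 and 46.2 normalized counts. Its groups overlapped throughout, and the log2 fold change of 0.05 had an interval from -0.87 to 0.97 (adjusted p = 0.979). Col1a2 took 4.50 to 7.92 times the normalized count of Col1a1 in control and 6.39 to 12.5 times in STZ libraries. Per kb of locus, which counts introns, the mean over the 6 libraries was 5.59 for Col1a2 and 1.87 for Col1a1. The length of the mature transcript was not used here, so the order of both chains per molecule was not measured.

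Col3a1, the chain of type III collagen, had similar means in both groups. It had control values of 96.4, 79.3 and 90.2 and STZ values of 100.3, 68.2 and 99.4 normalized counts. The log2 fold change was -0.01 with an interval from -0.50 to 0.49 (adjusted p = 0.996 by limma), or from 0.706-fold to 1.40-fold. Col5a2, a chain of the type V collagen that is found within type I fibrils, had control values of 69.7, 53.4 and 95.7 and STZ values of 57.6, 81.1 and 80.3 normalized counts. Col5a1, its partner chain, had control values of 34.9, 45.8 and 75.7 and STZ values of 44.6, 40.6 and 60.2. Both overlapped between the groups, with log2 fold changes of 0.02 (from -0.56 to 0.60) and -0.05 (from -0.73 to 0.63). Col3a1 and Col5a2 are neighbours on chromosome 9, with 57445 bases between them on rn4.

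The remaining fibrillar chains were at low levels. Col27a1 had means of 31.2 ± 11.6 in control and 23.4 ± 5.94 normalized counts in STZ rats, and Col24a1 had 12.2 ± 8.96 and 21.5 ± 19.4 (SD, n = 3 each). Col24a1 had its lowest value of 5.13 in control replicate 1 and its highest of 43.2 in STZ replicate 3, with the replicates 3 highest in both groups. Col5a3 and Col11a2 had means between 5.29 and 13.3 normalized counts. The adjusted p of these 4 chains lay between 0.712 and 0.983, and the interval of Col5a3 reached from -1.66 to 1.80 on the log2 scale. Col2a1, the chain of cartilage collagen, had at most 5 reads in a library and was not tested.

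**Figure D4:**
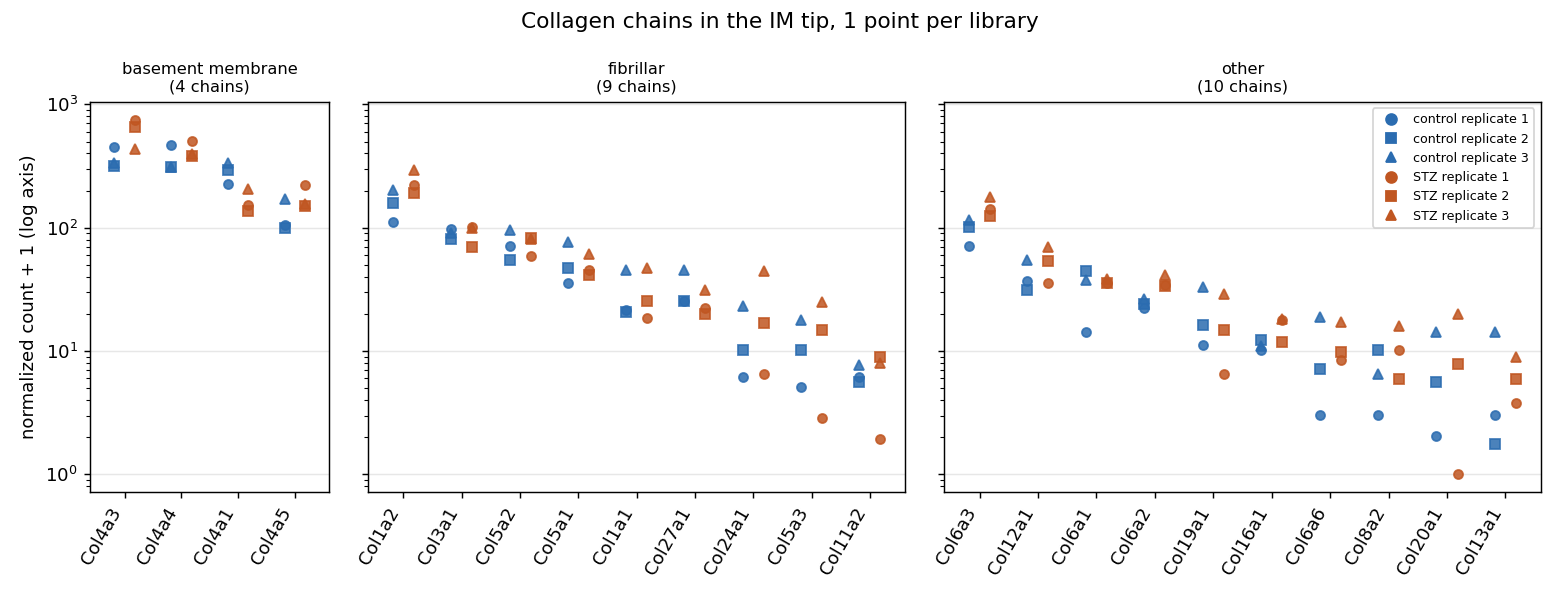
Normalized count plus 1 of the 23 tested collagen chains is plotted on a log axis, with 1 point per library, control to the left and STZ to the right of each name, and chains ordered by mean within basement membrane, fibrillar and other collagens. The type IV chains, Col1a2 and Col6a3 stand highest, and among the low chains replicate 3 (triangles) stands above replicate 1 (circles).

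Of the other collagens, Col6a3 of type VI had the highest mean by normalized count (121), followed by Col12a1 (45.8), Col6a1 (33.3) and Col6a2 (29.4). Col6a1, Col6a2 and Col6a3 had higher means in STZ rats, without passing the test. Col6a3, on chromosome 9 from 89966198 to 90043697, had control values of 69.7, 101 and 114 and STZ values of 142, 124 and 177 normalized counts. The groups did not overlap, with STZ rats higher. The means were 94.9 ± 22.6 and 147 ± 26.9 (SD over 3 libraries), giving a log2 fold change of 0.64 with an interval from 0.12 to 1.17 (adjusted p = 0.225 by limma). Col6a2, on chromosome 20 from 12444919 to 12464512, had control values of 21.5, 22.9 and 25.6 and STZ values of 33.4, 32.6 and 40.2 normalized counts. Its groups did not overlap either, and its log2 fold change of 0.58 had an SE of 0.26 and an adjusted p of 0.341. Col6a1, its neighbour at a distance of 107227 bases, had control values of 13.3, 43.5 and 36.7 and STZ values of 34.4, 34.6 and 37.1. Only control replicate 1 was low, and the log2 fold change was 0.33 with an interval from -0.54 to 1.20 (adjusted p = 0.810). Without that library the log2 fold change of Col6a1 was -0.17. Col6a6 had means of 8.65 ± 8.18 and 10.8 ± 4.62.

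Col12a1, which associates with fibrils, had control values of 35.9, 30.5 and 53.4 and STZ values of 34.4, 52.4 and 68.3 normalized counts. The groups overlapped, with a log2 fold change of 0.35, from -0.34 to 1.04 (adjusted p = 0.707 by limma). Col16a1 had means of 10.2 ± 1.12 and 14.9 ± 3.47 and Col19a1 of 19.3 ± 11.5 and 15.8 ± 11.4 (SD, n = 3 each). Col8a2, Col13a1 and Col20a1 had group means between 5.25 and 9.76 normalized counts, with log2 fold changes from -0.01 to 0.76 and adjusted p-values of at least 0.689. Col20a1 was at 0 in STZ replicate 1 and at 19.1 in STZ replicate 3. Col8a1, a chain of type VIII collagen, never had more than 2 reads, no more than the floor of 3 reads. Col9a2, Col17a1 and Col23a1 were above that floor in 2, 4 and 4 libraries and were not tested.

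The SE of the log2 fold change lay between 0.22 and 0.31 for the 9 chains that averaged 50 normalized counts or more, and between 0.26 and 1.12 for the 14 chains below. In the first set the 95% interval reached 0.48 to 0.68 to either side of the estimate, so with 3 libraries a group smaller changes of a single chain could not be told from 0 even before adjustment. By class, the medians were 0.38 for the 4 basement membrane chains, 0.02 for the 9 fibrillar chains and 0.47 for the 10 other chains, against 0.01 for all features tested. The summed normalized counts of the fibrillar chains were 371 to 598 in control and 465 to 691 in STZ libraries, and those of the type IV chains 1013 to 1248 and 1192 to 1628. The other chains summed to 171 to 346 and 292 to 443. The sums of each class overlapped between the groups.

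Collagen genes are long, and the values were set beside locus length. The median locus of the tested chains was 77.5 kb, from 2.68 kb for Col8a2 to 334 kb for Col19a1, longer than 84.5% of the features tested. Across the 13486 features the log2 fold change had a Spearman correlation of 0.112 with locus length. It was 0.0311 without control replicate 1, 0.0703 without STZ replicate 3 and 0.174 without control replicate 3. The median log2 fold change was 0.01 for loci under 1 kb, -0.10 at 1 to 3 kb, 0.11 at 100 to 300 kb and 0.18 above. Across the 23 chains the Spearman correlation was -0.139, between -0.319 and 0.00395 with each library left out, a description across genes that share libraries. The chains over the median length had a median log2 fold change of 0.35 and the others 0.20, against 0.10 and -0.01 for all features on the same sides of 77.5 kb. Col4a1, Col4a3, Col4a4 and Col4a5 have loci of 113, 126, 121 and 101 kb. With the trend on locus length taken out of each library, 0 chains passed, the log2 fold change of Col4a1 was -0.89 (adjusted p = 0.0502 by limma) and that of Col4a3 was 0.61 (adjusted p = 0.333). Locus length also alters the order of the levels. By normalized count, Col4a3, Col4a4 and Col4a1 came first, and per kb of locus Col1a2 (5.59), Col4a3 (3.88) and Col4a4 (3.24).

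**Figure D5:**
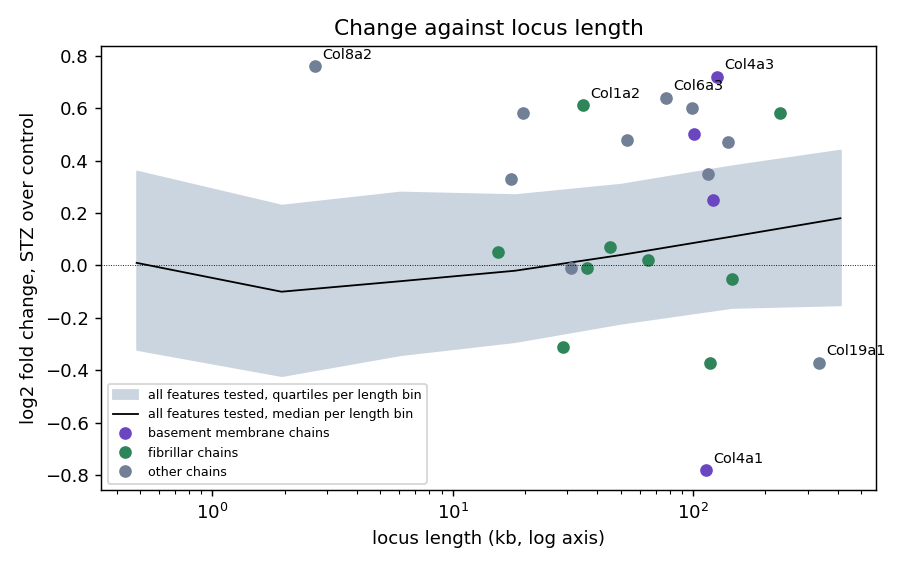
The log2 fold change, STZ over control, of each tested collagen chain is plotted against locus length in kb on a log axis, over the median (line) and quartiles (band) of all features tested in 7 length bins. The chains lie between -0.78 and 0.76 at every length, and Col4a1 and Col4a3 stand far apart at 113 and 126 kb.

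The genes that make, crosslink, bind or accompany collagen were read from the same fit. Of 51 such genes found in 4 lists, 44 were tested and 4 passed (2 rose and 2 fell), where 2.10% of all features did. Found were 23 of 41 names for biosynthesis and crosslinking and 9 of 10 for receptors. For partners of basement membranes and of fibrils they were 11 of 17 and 9 of 14. Some names are alternatives for the same gene. Lox, P4ha1, Fn1 and Hspg2 were not found under these names. Loxl4, a lysyl oxidase that crosslinks collagen and that the study itself ranks among its lowest genes, fell in STZ rats, with control values of 339, 433 and 384 and STZ values of 52.9, 72.2 and 76.3 normalized counts. The groups stood far apart. The log2 fold change was -2.51, with an SE of 0.21 and an adjusted p of 0.000175 by limma, and the adjusted p lay between 2.39e-21 and 0.0301 over 17 alternatives. Of 20 genes tested in the list of biosynthesis and crosslinking, limma and edgeR called Loxl4 alone, and DESeq2 called Loxl4 and Sparc. In the same list Ppib, a folding enzyme of the endoplasmic reticulum, had a log2 fold change of -0.51 (adjusted p = 0.235, or 0.0457 under equal library totals) and Sparc, a collagen-binding protein that is also in the list of basement membrane partners, of 0.56 (adjusted p = 0.161, and 0.0281 by DESeq2), both without overlap of the groups.

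Of 7 collagen receptors tested, Ddr1 rose. This receptor tyrosine kinase of epithelia had control values of 29.7, 35.1 and 32.3 and STZ values of 119, 91.0 and 64.2 normalized counts. Every STZ value was above the control values. The log2 fold change was 1.43, with an SE of 0.26 and an adjusted p of 0.0212 by limma, and the adjusted p ran from 0.00112 to 0.160 over 17 alternatives, under 0.05 in 11. It was 0.0650 without control replicate 1, 0.0738 without control replicate 2, 0.0823 without STZ replicate 1 and 0.0883 without STZ replicate 2. Ddr2, its relative in stromal cells, had a log2 fold change of -0.06 (adjusted p = 0.966) and Itgb1, the beta chain of the collagen-binding integrins, of -0.08 (adjusted p = 0.922). The signs of both depended on the libraries included.

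Of the 11 basement membrane partners tested, which include laminins and nidogens, 0 passed by limma (2 at an unadjusted p under 0.05) or edgeR, and 2, Lamb3 and Sparc, by DESeq2. Agrn, a heparan sulfate proteoglycan of these membranes, had a log2 fold change of 0.30 (adjusted p = 0.547). Of the 7 partners of fibrils tested, Postn rose and Vcan fell. Postn, a matricellular protein of fibroblasts, had 2, 1 and 3 reads in control and 30, 43 and 24 in STZ replicates 1, 2 and 3. The ratio of its group totals was 16.7, with a 95% interval from 7.4 to 46.6 that covers counting error only, and its adjusted p was 0.00858 by limma and 0.0951 without STZ replicate 2. DESeq2 gave it no adjusted p. Vcan, a large proteoglycan of the interstitium, had control values of 495, 1060.2 and 719 and STZ values of 238, 150.3 and 274 normalized counts. The groups did not overlap, and the log2 fold change was -1.75 with an SE of 0.30. Its adjusted p was 0.0150 by limma, with an adjusted p of 0.0645 without control replicate 2 and 0.0574 without STZ replicate 2. Dcn, the fibril-coating proteoglycan decorin, had 6999 normalized counts on average and a log2 fold change of -0.37 (adjusted p = 0.705), and STZ replicate 3 was lowest with 3307.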

How the data were processed

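RNA was extracted from the IM tip, and cDNA was made with a PCR-based kit and sequenced on a HiSeq2000. The authors aligned reads to rn4 with STAR 2.3.1t, counted those mapped uniquely to genes annotated in Ensembl RGSC3.4, and scaled the counts by DESeq 1.16.0. Which program counted, and whether by strand, is not given in the sources used here. The deposited values are a signal, namely read counts that the authors scaled by a size factor per library. Whole reads were recovered by dividing by the smallest value of each library (100.0% of values whole within 1e-06), a read being worth 0.763 to 1.11 normalized counts. PCR reads are not independent molecules, so floors and counting intervals cover counting error only.

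The main test was limma 3.58.1 (R 4.3.3) with an intensity trend, run on log2(normalized count + 1) of 13486 features that averaged at least 5, with Benjamini-Hochberg adjustment over all of them at 0.05. Fold changes on this scale understate the change of low genes. The alternatives were pseudocounts of 0.5 and 5, a minimum mean of 20, no filter, equal library totals, no intensity trend, edgeR 4.0.16 (TMM) and DESeq2 1.42.0 on recovered reads, the replicate block, a lowess correction for locus length with and without that block, and each library left out. Locus length is the span of the feature on rn4, introns included. On simulated data, 200 features were changed by a log2 of 2, and 13311 features passed the filter. Of the changed features that passed it, limma recovered 90.3%, edgeR 93.5% and DESeq2 87.6%, with 12, 9 and 10 false calls. The simulation gave all features the same dispersion and no effect of replicate number. Its changes were larger than those of the tested chains (-0.78 to 0.76), so the recovery does not apply to the chains. Chains with a mean of at least 5 were named, with values per library for those without overlap of the groups and the highest 3 per class, and of 4 partner lists the genes that passed and the highest 2 per list. The 9 marker lists, the members and all lists were chosen with earlier results of these data known. Promoter sequences are RefSeq's on GRCr8. Chains listed under other names were not analysed here.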

Additional observations from a re-analysis of the deposited data

How the results depend on the processing

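Over all features, 283 were called. This became 98 without the filter, 31 without the intensity trend, 599 with DESeq2, and between 88 (without STZ replicate 2) and 352 when each library was left out, with 101, 141, 163 and 182 without control replicate 2, STZ replicate 1, STZ replicate 3 and control replicate 1. The count of 0 collagen chains became 2 with DESeq2, and stayed at 0 with each library left out. Of the partner genes, 4 were called, 1 without the filter, 2 without the trend and between 1 (without STZ replicate 2) and 5 with a library left out, with 2 without control replicate 2. Without the filter the adjusted p was 0.160 for Ddr1, 0.220 for Vcan and 0.0993 for Postn, and without the trend 0.130 for Ddr1 and 0.152 for Vcan. The cause of these differences was not tested. The sign of uncalled chains changed for Col3a1 (0.02 with edgeR, 0.01 with DESeq2), Col5a2 (-0.01 with equal totals, -0.04 with the locus length correction), Col13a1 (-0.01 with DESeq2) and Col20a1 (0.15 with a pseudocount of 5, 0.46 with edgeR and DESeq2). With each library left out, signs also changed for Col1a1 (-0.32 to 0.42), Col3a1 (-0.10 to 0.17), Col5a1 (-0.30 to 0.25), Col5a2 (-0.18 to 0.24), Col5a3 (-0.58 to 0.99), Col11a2 (-0.70 to 0.40), Col24a1 (-0.11 to 1.27), Col6a1 (-0.17 to 0.64), Col6a6 (-0.04 to 1.27), Col13a1 (-0.17 to 1.34), Col19a1 (-0.89 to 0.19), Col20a1 (-0.95 to 1.21), Dcn (-0.70 to 0.04), Ddr2 (-0.27 to 0.16) and Itgb1 (-0.16 to 0.05). The 11 other chains, Col4a1 (-0.95 to -0.66) and Col4a3 (0.55 to 0.95) among them, kept their sign in every alternative run. The Spearman correlation with locus length lay between -0.319 and 0.00395 across the chains with a library left out, and over all features it was between 0.0311 and 0.174 with a library left out and -0.0146 after the correction.

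The replicate numbers are shared between the groups. Deviations from group means correlated with r = 0.395, -0.0612 and 0.323 for numbers 1, 2 and 3 (9315 features, not independent). The libraries of numbers 1 and 3 correlated best with their own number, and control replicate 2 and STZ replicate 2 did not. Whether libraries of the same replicate number share anything else is not given by the labels and was not tested. Blocking on that number, limma called 561 features, 1 collagen chain (Col4a1, adjusted p = 0.0413) and 6 partner genes. With this replicate block and the locus length correction together it called 609 features and 1 chain (Col4a1, adjusted p = 0.0215), the log2 fold change of Col5a2 was -0.04 and the Spearman correlation over all features was -0.0146. The 95% intervals of all 14 chains under a mean of 50 normalized counts span 0, as do those of 5 of the 9 chains above it.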

Other observations

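Col7a1, the chain of the anchoring fibrils under stratified epithelia, was counted in a feature merged with the microRNA gene rno-mir-711 on chromosome 8 of rn4 and was left out of the 28 chains. That feature had 1.03, 8.39 and 30.1 normalized counts in control and 6.50, 13.8 and 13.1 in STZ replicates 1, 2 and 3, and the groups overlapped. The feature that spans both Col4a4 and Col4a3 held 1 read in a single library.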
